A study of Mus musculus with 64 samples.

Results

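The 10 genes described here encode the NF-kB transcription factor subunits, proteins that hold NF-kB signalling back, and an inhibitor-like nuclear cofactor (Nfkbiz). The genes are Nfkb1, Nfkb2, Rela, Relb, Rel, Nfkbia, Nfkbib, Nfkbie, Nfkbiz and Tnfaip3. They were taken by symbol from a table of 49671 genes, and all 10 had a row and passed the count filter in every comparison. RNA was sequenced from microglia of hippocampus and of frontal cortex, taken from adult male C57BL/6 mice (the substrain C57BL6/N in the study's methods). All animals were of this strain, and the labels name no transgene or drug. The mice were kept with the light cycle reversed and were collected in the light and in the dark phase. The labels name the phases Day and Night without saying which of them was lit. The study's methods put the dark phase of these animals in the daytime hours of the laboratory. Day is therefore used here as a label only, not as the lit phase. The condition names Soci, Cogn, Ctr0 and Ctr1 are used as the labels give them, since their meaning is not stated. The 2 regions, 2 phases and 4 conditions make 16 groups of 4 libraries, 64 in all. The cells were released by mechanical dissociation in the cold and taken with magnetic beads against CD11b, a surface protein that other myeloid cells of the brain also carry. The labels do not say whether replicates were separate animals or pools, so p-values measure only the spread between these libraries.

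NF-kB is a family of dimers. In resting cells the dimers of Rela, Rel and the p50 product of Nfkb1 are held in the cytoplasm by inhibitors (IkB proteins), which are destroyed when receptors for bacterial products, interleukin 1 or tumour necrosis factor signal. This is the canonical pathway. In the non-canonical pathway, receptors of the CD40 and lymphotoxin type let the p100 precursor made from Nfkb2 be cut to p52, which works with Relb. Several of the inhibitors are themselves transcribed by NF-kB, so that signalling ends itself, and in microglia the pathway is known for driving the production of cytokines.

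Near their start sites 5 of the genes carry a match to the kappaB consensus, the sequence that NF-kB dimers bind. These stretches are shown because several genes of the family are known targets of NF-kB. RefSeq promoter windows of GRCm38.p6, each from 250 bases before to 50 bases after a start site, were available for 7 of the 10 genes. Nfkb1, Relb and Nfkbiz had no window. The kappaB consensus, of 10 bases beginning with GG and ending with CC, was searched on both strands. Nfkb2, Rel, Nfkbia, Nfkbie and Tnfaip3 held a match, and Rela and Nfkbib did not hold these letters. Among all 27025 genes with a window, 5.14% held a match. Capitals mark the match in each stretch below, which is written 5′ to 3′ along the strand of the gene.
Nfkbia, chr12:55492648-55492897, minus strand, the whole 250 bases before the start: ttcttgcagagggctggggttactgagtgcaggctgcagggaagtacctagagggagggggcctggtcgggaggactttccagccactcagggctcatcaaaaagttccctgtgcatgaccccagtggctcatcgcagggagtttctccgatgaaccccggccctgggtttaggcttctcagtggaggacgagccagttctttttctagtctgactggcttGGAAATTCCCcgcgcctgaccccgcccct
Nfkb2, chr19:46304688-46304717, plus strand: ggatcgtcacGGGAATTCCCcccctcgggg
Nfkb2, chr19:46304716-46304745, plus strand: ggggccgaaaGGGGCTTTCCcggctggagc
Nfkb2, chr19:46305695-46305724, plus strand: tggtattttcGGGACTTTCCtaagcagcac
Rel, chr11:23771042-23771071, minus strand: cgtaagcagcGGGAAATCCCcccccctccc
Nfkbie, chr17:45555584-45555613, plus strand: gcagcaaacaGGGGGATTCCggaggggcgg
Tnfaip3, chr10:19015516-19015545, minus strand: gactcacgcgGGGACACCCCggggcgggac
Tnfaip3, chr10:19015403-19015432, minus strand: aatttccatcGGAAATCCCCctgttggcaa

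The first stretches of Nfkb2 and of Rel each held a further match on the other strand, shifted by 1 base, and Nfkb2 had one more at chr19:46305459-46305468. The 3 stretches of Nfkb2 shown lie wholly or almost wholly inside annotated exons of its other transcripts. The E-box CACGTG, the element bound by the clock factors, was found in the window of Tnfaip3 and in none of the other 6, against 8.09% of all genes. A match describes letters only, and binding was not measured in these samples.

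Total counts per library ran from 10.2 to 84.5 M, and 3 hippocampal libraries of replicate 4 held more than all others, with 62.2, 65.7 and 84.5 M. The gene Gm23935 took 1.95% to 3.78% of the counts in 7 hippocampal libraries of replicate 4 and 2.82% in Day Ctr1 replicate 1, while the remaining replicate 4 library, Day Ctr1, had 0.0998%. The other 23 hippocampal libraries had 0.0894% to 1.15%, and the 32 cortical ones 0.113% to 7.21% with a median of 3.61%, so the share also differed between the regions. Hippocampal results are therefore also given without these 9 libraries. Day Ctr1 replicate 4, with 17.0 M counts, lay inside the range of the others and was left out with its number, and results with it kept (8 libraries left out) are given beside them. The clock genes Per2 and Nr1d1 separated the phases in both regions. Per2 had a median of 29.0 CPM (counts scaled to a common library size with TMM factors) in Day and 12.6 CPM in Night in hippocampus, and 22.2 and 9.24 CPM in frontal cortex, where its Day and Night libraries did not overlap. Nr1d1 went the other way, with medians of 4.05 CPM in Day and 14.8 CPM in Night in hippocampus. The 11 microglia markers together had 12400 to 25800 CPM in every frontal cortex library and 13200 to 21900 CPM in every hippocampal one.

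All 10 genes were expressed in every library, with the lowest single value being 51 counts of Relb. Levels can be compared between genes only per length, here as CPM per kilobase of exon. Nfkbia, the inhibitor IkB-alpha, stood highest with 23.3 ± 5.83 CPM per kb (SD, n = 64). Rela, the p65 subunit, followed with 16.8 ± 1.39, Nfkb1 with 11.6 ± 0.894 and Rel, the subunit c-Rel, with 10.7 ± 1.31. Tnfaip3, which encodes the deubiquitinase A20 that stops signalling upstream of the dimers, had 6.21 ± 0.639 CPM per kb. Nfkbie (IkB-epsilon) had 6.11 ± 0.70 and Nfkbiz (IkB-zeta, a nuclear inhibitor-like cofactor) 4.45 ± 0.669. The lowest levels were those of Nfkb2 with 3.42 ± 0.49, Nfkbib (IkB-beta) with 3.04 ± 0.355 and Relb with 2.40 ± 0.701 CPM per kb.

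Neighbours in this order mostly overlapped. Rela lay above Nfkb1 in 64 of 64 libraries, and this was the one neighbouring pair whose ranges were apart. In CPM not divided by length the order was the reverse, with means of 140.3 for Nfkb1 and 51.4 for Rela. The length used joins the exons of all annotated transcripts, 12.061 kb for Nfkb1 and 3.072 kb for Rela. The order of these genes therefore depends on that length. Rel exceeded Tnfaip3 in 64 of 64 libraries too, although their ranges over all libraries overlapped. Tnfaip3 and Nfkbie could not be ordered, since Tnfaip3 was the higher in 34 of 64. The genes of the canonical dimers were thus the abundant ones, and both genes of the non-canonical dimer, Nfkb2 and Relb, were among the lowest 3.

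**Figure D1:**
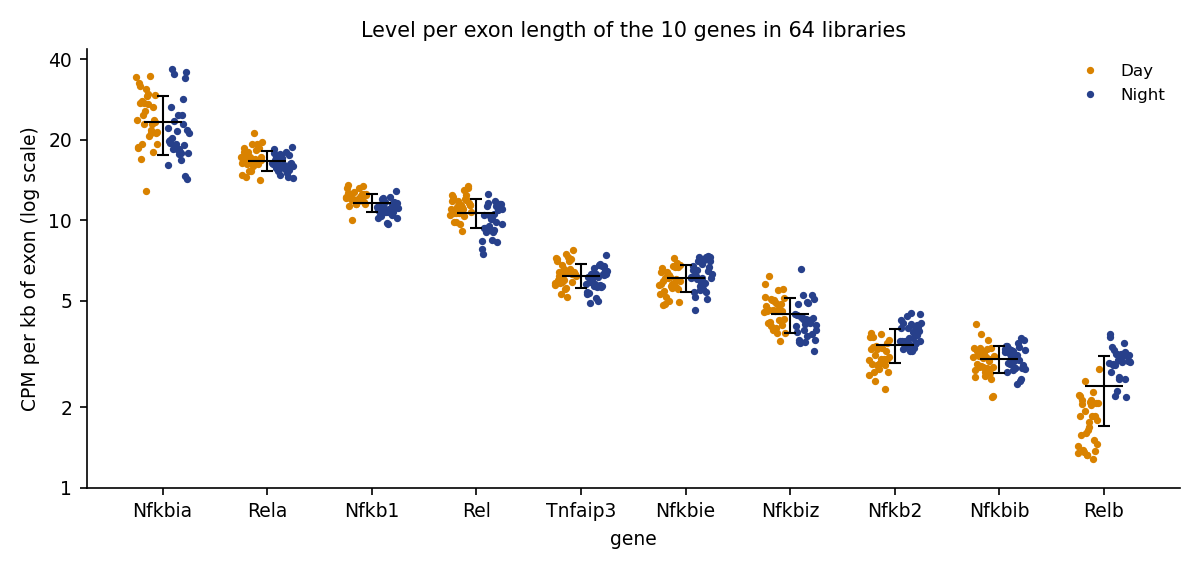
Level of each gene in CPM per kilobase of exon on a log scale, with 1 point per library (orange Day, blue Night) and bars giving the mean and SD over 64 libraries. Nfkbia is highest and most spread, Rela has a mean of 16.8, and Relb is lowest with its Day points under most of its Night points.

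The first question was whether these genes differ between the phases. Day was compared with Night over 16 and 16 libraries per region, over all conditions together, with edgeR's quasi-likelihood F test and Benjamini-Hochberg adjustment over all genes tested. A log2 change is Day relative to Night. In hippocampus 6 of the 10 genes passed an adjusted p of 0.05, 4 of them higher in Day and 2 lower, where 42.2% of all 15527 genes tested passed. In frontal cortex 5 passed, 3 higher and 2 lower, against 41.8% of 14975 genes. The share of the 10 genes was thus not far from that of all genes. Their median log2 change was 0.099 in hippocampus and 0.070 in frontal cortex, beside 0.023 and -0.018 over all genes tested. In these bulk samples, fewer cells of a type and less RNA per cell cannot be told apart.

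Relb showed the widest separation of the 10. In hippocampus its level ran from 5.15 to 9.74 CPM in Day with a median of 6.29, and from 8.57 to 14.6 CPM in Night with a median of 11.35. In frontal cortex it ran from 4.99 to 10.8 CPM in Day with a median of 7.21, and from 8.51 to 13.5 CPM in Night with a median of 12.1. Thus 13 of 16 hippocampal and 14 of 16 cortical Day libraries lay under every Night library of their region, although the ranges overlapped. Relb fell in Day by 0.73 ± 0.094 on the log2 scale in hippocampus (SE, adjusted p = 2.53e-07 in edgeR) and by 0.69 ± 0.079 in frontal cortex (adjusted p = 7.02e-08), to 0.604 and 0.62 times the Night level.

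Nfkb2, the source of the p52 partner of Relb, was lower in Day as well, by a smaller amount. Its hippocampal level ran from 11.5 to 17.4 CPM in Day with a median of 14.1, and from 14.95 to 20.1 CPM in Night with a median of 16.2. In frontal cortex it ran from 10.7 to 17.3 CPM in Day, with a median of 13.9, and from 14.9 to 20.6 CPM in Night, with a median of 17.6. The ranges overlapped, with 9 of 16 hippocampal and 11 of 16 cortical Day libraries under every Night library. Nfkb2 fell by 0.19 ± 0.057 on the log2 scale in hippocampus (edgeR, adjusted p = 0.00746) and by 0.32 ± 0.056 in frontal cortex (adjusted p = 3e-05). It shares exon bases with 2 genes on the opposite strand, 6.52% with Psd and 11.6% with AC114539.1, but the counting separated strands.

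**Figure D2:**
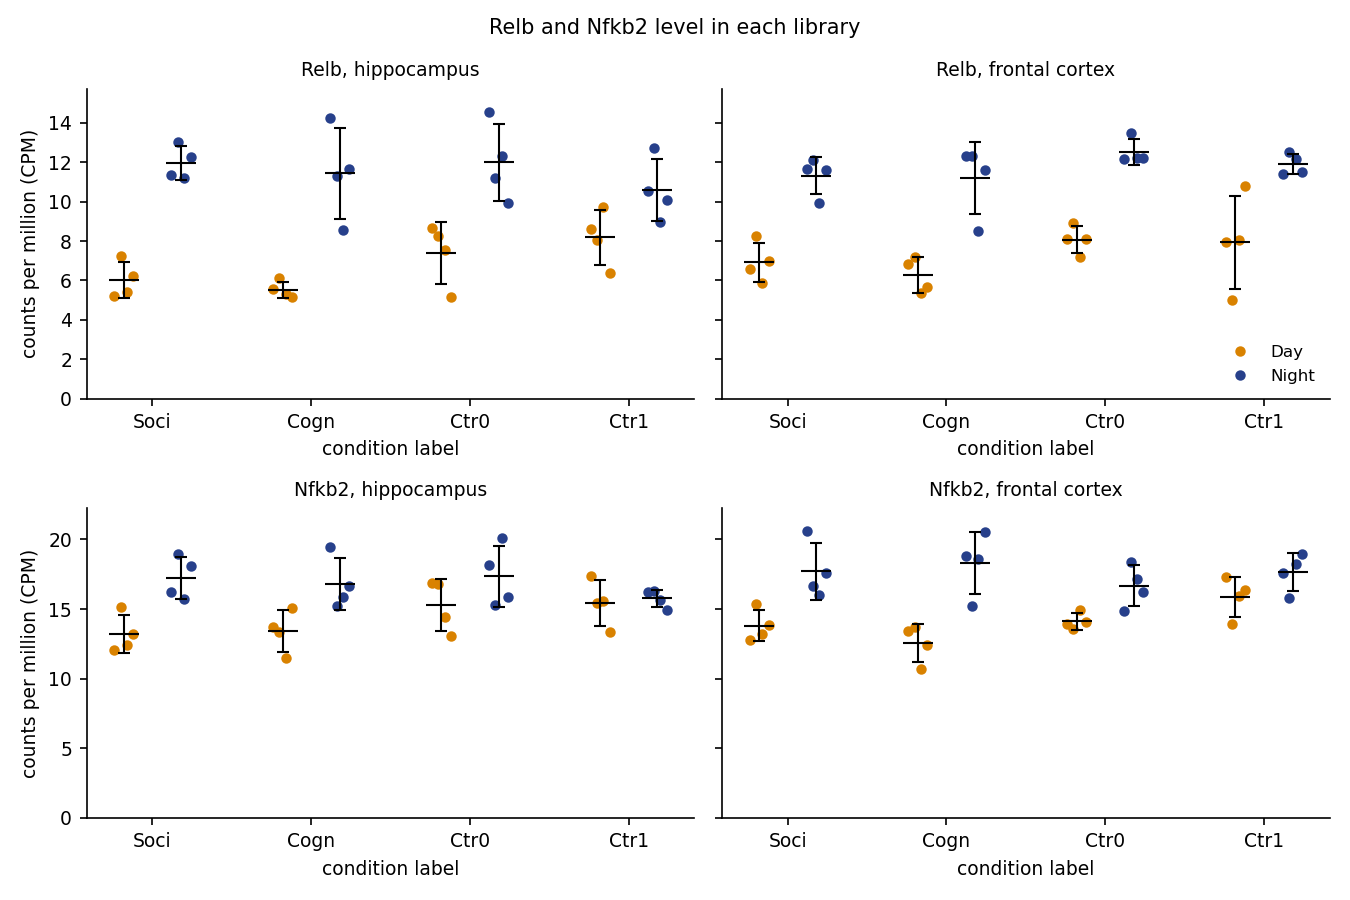
Relb (top) and Nfkb2 (bottom) in CPM in the 64 libraries by region and condition, 1 point per library, with the mean and SD of each group of 4. Relb has its Day mean under its Night mean in 8 of 8 pairs of groups, and all 4 Day libraries lie under all 4 Night libraries in 7 of them. Nfkb2 has the same order of means in 8 of 8 pairs and separate libraries in 4.

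The genes of the canonical dimers moved little and, where they passed, upward in Day. Nfkb1 ran from 121 to 164 CPM in Day with a median of 145.7 and from 118 to 146 CPM in Night with a median of 131.5 in hippocampus. In frontal cortex it ran from 139 to 163 CPM in Day with a median of 146.8, and from 117 to 156 CPM in Night with a median of 133.6. The ranges overlapped in both regions, and 11 of 16 cortical Night libraries lay under every Day library. Nfkb1 rose by 0.18 ± 0.035 on the log2 scale in hippocampus (edgeR, adjusted p = 7.03e-05) and by 0.13 ± 0.031 in frontal cortex (adjusted p = 0.00104), which is 1.14 and 1.10 times the Night level.

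Rel, abundant in cells of the blood lineage, rose in both regions too. Its hippocampal level was 72.2 to 92.8 CPM in Day with a median of 80.2, and 55.7 to 93.7 CPM in Night with a median of 69.9. Of the 16 hippocampal Night libraries 10 lay under every Day library, and the single highest library was a Night one. In frontal cortex Rel ran from 67.9 to 100.3 CPM in Day with a median of 86.2 and from 61.8 to 88.1 CPM in Night with a median of 82.1. The log2 change was 0.22 ± 0.057 in hippocampus (edgeR, adjusted p = 0.00205) and 0.14 ± 0.050 in frontal cortex (adjusted p = 0.0251). Rela rose by 0.12 ± 0.046 in frontal cortex (edgeR, adjusted p = 0.0275), where its medians were 52.0 CPM in Day and 48.9 CPM in Night. In hippocampus its change was 0.033 with a 95% interval from -0.039 to 0.10, and the mean CPM, scaled over both regions, was slightly the other way. The difference of the Rela change between the regions did not pass the test (-0.13 ± 0.057, edgeR adjusted p = 0.343).

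Setting 2 of the genes against each other inside a library removes the scaling between libraries. Per 100 counts per kb of Rela, frontal cortex had 7.61 to 14.16 counts per kb of Relb in Day, with a median of 11.0, and 14.20 to 22.2 in Night, with a median of 19.2, and all 16 Day libraries lay under all 16 Night libraries. In hippocampus the same ratio was 7.66 to 15.1 in Day and 12.99 to 22.6 in Night, and 13 of 16 Day libraries lay under every Night one. Relb per 100 of Rel was 12.4 to 21.1 in Day and 17.6 to 50.2 in Night in hippocampus, with 11 of 16 Day libraries under every Night one, and 10.8 to 25.8 and 19.7 to 38.9 in frontal cortex, with 14 of 16. Nfkb2 per 100 of Nfkb1 had a median of 25.8 in Day and 32.7 in Night in hippocampus, with 15 of 16 Day libraries under every Night library. In frontal cortex these medians were 24.6 and 34.7, with 14 of 16 Day libraries under every Night library. The ratios were chosen after the levels had been seen and are given as a description. They rest on the same counts as the changes above and are no separate evidence. In them the non-canonical genes were lower relative to the canonical ones in Day in both regions.

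Of the 4 IkB genes, 1 passed, in 1 region, and it was that of the inhibitor-like cofactor IkB-zeta. Nfkbiz in hippocampus ran from 19.6 to 31.2 CPM in Day with a median of 23.2 and from 17.5 to 33.0 CPM in Night with a median of 21.1. It rose by 0.19 ± 0.074 on the log2 scale (edgeR, adjusted p = 0.0378), and it passed in 3 of 16 alternative fits. In frontal cortex its change was 0.086 with a 95% interval from -0.044 to 0.22. Nfkbia had overlapping ranges in both regions, from 20.7 to 55.5 CPM in Day and 25.9 to 59.5 CPM in Night in hippocampus, and from 28.95 to 55.7 CPM in Day and 23.0 to 57.8 CPM in Night in frontal cortex. Its change was 0.17 with an interval from -0.066 to 0.41 in hippocampus, and 0.18 with an interval from -0.047 to 0.41 in frontal cortex. Nfkbie gave -0.036 and -0.082, and Nfkbib gave 0.056 and -0.064, in hippocampus and frontal cortex in that order. The interval of Nfkbie reached from -0.19 to 0.027 in frontal cortex and that of Nfkbib from -0.20 to 0.075. Nfkbib shares 14.5% of its exon bases with Ccer2 and 1.94% with Sirt2, both on the opposite strand.

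Tnfaip3 rose in hippocampus by 0.14 ± 0.047 on the log2 scale (edgeR, adjusted p = 0.0138), with 38.3 to 52.3 CPM in Day and 35.4 to 47.8 CPM in Night. Its medians of 44.1 and 42.2 CPM were close, and 4 of 16 Day libraries lay above every Night library. In frontal cortex the change was 0.054 with an interval from -0.047 to 0.16. The change of Tnfaip3 was not shown to differ between the regions (0.045 ± 0.069, edgeR adjusted p = 0.895).

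**Figure D3:**
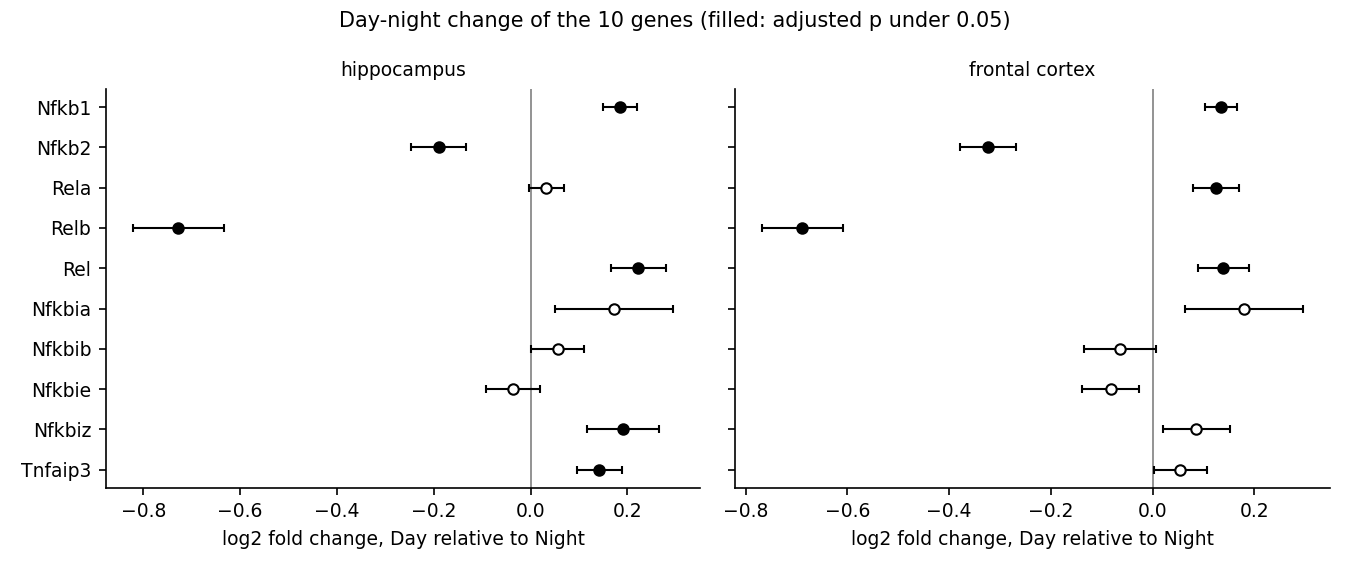
Log2 fold change of each gene, Day relative to Night, with its SE, from the edgeR fit of each region (16 Day and 16 Night libraries). Filled points have an adjusted p under 0.05. Relb lies farthest from 0 in both regions, Nfkb2 is the other gene below 0 with a filled point, and the filled point farthest above 0 is that of Rel in hippocampus, at 0.22.

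The calls differed in how far they held under other ways of fitting. Relb was lower in Day in each of 16 alternatives in hippocampus and 14 in frontal cortex, between -0.89 and -0.64 and between -0.76 and -0.62 on the log2 scale. It missed the threshold in 1 of them, the hippocampal fit with the scores of 8 other cell types as terms (-0.78, adjusted p = 0.103). Nfkb2 was lower in each alternative as well and passed in 14 of 16 and 13 of 14. Nfkb1 passed in 13 of 16 and 11 of 14, Rel in 10 of 16 and 9 of 14, Rela in 9 of 14 in frontal cortex, and Tnfaip3 in 6 of 16 in hippocampus. Leaving out the libraries of 1 replicate number ended the hippocampal calls of Rel (0.11 without replicate 1 and 0.18 without replicate 2), of Tnfaip3 (0.074, 0.079 and 0.13 without replicates 1, 2 and 4) and of Nfkbiz (0.11, 0.14 and 0.16 without the same). In frontal cortex it ended that of Rel without replicates 2 and 3 (0.12 and 0.13). It also ended that of Rela without replicates 1, 2 and 3 (0.13, 0.094 and 0.13). Nfkbia passed there without replicate 3 (0.32, edgeR adjusted p = 0.0237). The share of all genes passing was lower in these fits too. It was 28.2%, 29.2% and 32.5% in hippocampus without replicates 1, 2 and 4, against 42.2%. Without replicates 1, 2 and 3 it was 33%, 26.5% and 32.4% in frontal cortex, against 41.8%. With library totals in place of TMM scaling, the median of all genes moved to -0.14 in hippocampus and -0.087 in frontal cortex, and 6.10% and 16.1% of the called genes were higher in Day, against 55.5% and 49.2% with TMM. Under that scaling Nfkb1 had 0.025 and 0.063 and Rel 0.060 and 0.071, none past the threshold, and Tnfaip3 changed sign to -0.014 and -0.017, while Relb and Nfkb2 passed in both regions, beside 27.6% and 27.1% of all genes. Without the 9 hippocampal libraries, 3 of the 10 genes passed in hippocampus, beside 30.7% of all genes tested: Relb at -0.74, Nfkb2 at -0.24 and Nfkb1 at 0.13. Rel at 0.18 (adjusted p = 0.0525), Nfkbiz at 0.16 (0.197) and Tnfaip3 at 0.11 (0.11) did not. With Day Ctr1 replicate 4 kept, Rel passed as well (0.21, edgeR adjusted p = 0.03), while Nfkbiz (0.20, 0.0854) and Tnfaip3 (0.14, 0.0516) did not, and 31.4% of all genes passed.

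**Figure D4:**
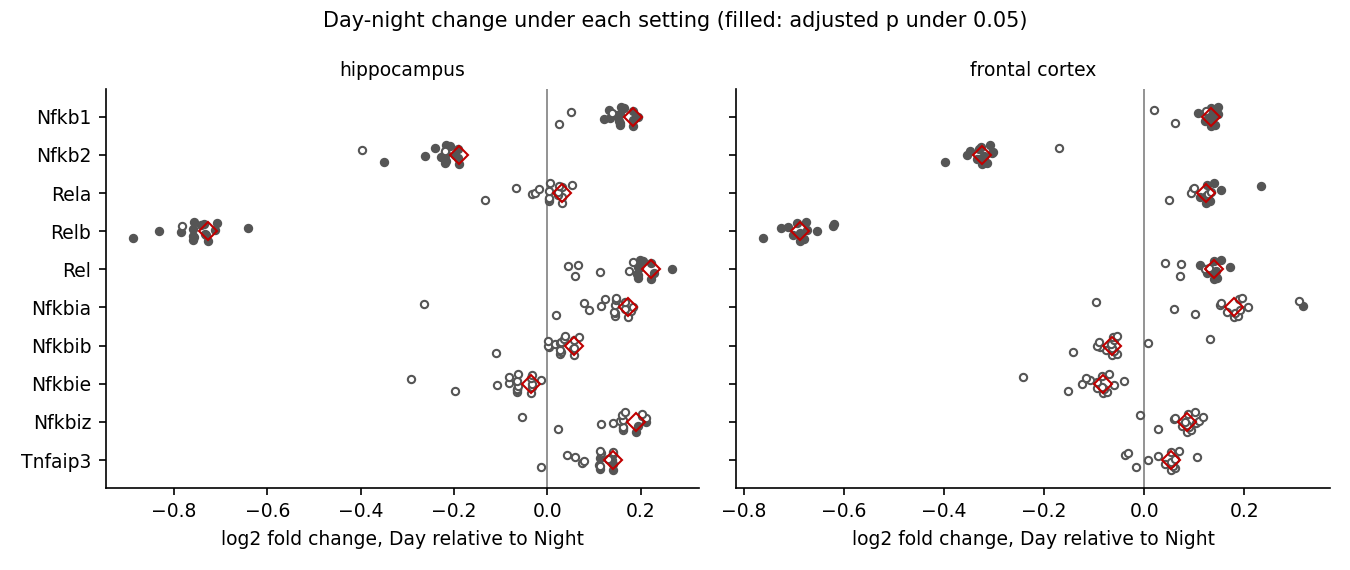
Log2 change of each gene, Day relative to Night, under the reported setting (red diamond) and each alternative (circles, filled where the adjusted p was under 0.05), 16 in hippocampus and 14 in frontal cortex. The circles of Relb stay between -0.89 and -0.62, those of Nfkb2 under 0, and those of Rela, Nfkbia, Nfkbib, Nfkbiz and Tnfaip3 lie on both sides of 0 in at least 1 region.

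Markers of other cells moved with the phases, in comparisons where 42.2% of all genes passed in hippocampus and 41.8% in frontal cortex. All 9 border macrophage markers rose in Day in hippocampus and 7 of 9 in frontal cortex. Their log2 changes were uneven, from 0.36 to 1.96 in hippocampus and from 0.022 to 2.0 in frontal cortex, with Lyve1 the highest in both. Their summed level was 933 to 1490 CPM in Day and 686 to 1110 CPM in Night in hippocampus, and 963 to 1580 and 780 to 1200 CPM in frontal cortex. Of the 11 microglia markers 8 rose in hippocampus and 5 in frontal cortex, and none fell. Of the 7 astrocyte markers 6 fell in Day in each region, while Slc1a3 rose in hippocampus (0.40, edgeR adjusted p = 0.000129), and their sum reached 511 CPM in Day and 1830 CPM in Night at most in hippocampus, and 604 and 2450 CPM in frontal cortex. All 7 choroid plexus markers fell in hippocampus, with sums of 1.43 to 893 CPM in Day and 11.1 to 2830 CPM in Night, and none of the 3 tested passed in frontal cortex. Of the 7 oligodendrocyte markers 6 fell in hippocampus and 3 in frontal cortex, 2 and 8 of 9 neuronal markers fell, and 6 and 1 of 8 endothelial markers fell. Of the markers of neutrophils and monocytes, 5 of 10 passed the filter, and 1 rose and 1 fell in hippocampus and none in frontal cortex, where single libraries reached sums of 143 CPM. The 1 lymphocyte marker tested did not pass in either region. No marker of any list was at 0 in every library of a region.

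With the border macrophage score as a term, Relb passed in hippocampus (-0.64, adjusted p = 0.0133), and Relb (-0.62, adjusted p = 0.000388) and Nfkb2 (-0.33, adjusted p = 0.00624) passed in frontal cortex. Nfkb2 in hippocampus (-0.22, adjusted p = 0.176) and the other 8 genes in both regions did not pass in that fit, in which 5.94% of genes passed in hippocampus and 10.4% in frontal cortex. With the scores of the 8 other cell types, none of the 10 passed in hippocampus, where 1.93% of genes passed, and Relb (-0.62) and Rela (0.23) passed in frontal cortex, where 27.6% did. Markers of several of these cell types moved with the phases themselves, so a score as a term also takes up part of the day-night change. These fits therefore cannot tell the part of other cells apart from that of the phase, and it was not tested further. Over the 64 libraries, with the mean of each region removed, Nfkb1 had a correlation of -0.79 with the neuronal score and 0.54 with the border macrophage score, and Relb had 0.44 and -0.68. These are descriptions over libraries that share phase, depth and preparation, and phase was not removed.

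Of 7 genes taken as responsive to glucocorticoids 6 rose in Day in each region, among them Fkbp5, Per1 and Ddit4, with a median log2 change of 0.92 in hippocampus and 1.0 in frontal cortex. Of 16 genes of the response to cell dissociation, 15 were tested, of which 8 rose and 2 fell in hippocampus and 5 rose and 3 fell in frontal cortex. The correlation of the glucocorticoid score was -0.79 with Relb, -0.65 with Nfkb2 and 0.71 with Nfkbia over the 64 libraries. Phase was not removed, so these values include the opposite day-night changes of the score genes and of Relb and Nfkb2. The correlation of the score inside a phase was not computed.

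Next, each condition was taken alone, with 4 Day against 4 Night libraries, in 1 fit per region over 8 phase and condition means. In hippocampus 7 of 40 pairs of gene and condition passed in edgeR, and in frontal cortex 7 of 40. The shares of all 16826 genes that passed in hippocampus were 8.08% in Soci, 5.32% in Cogn, 13.2% in Ctr0 and 12.5% in Ctr1, and the members passing numbered 3, 1, 2 and 1 of 10. In frontal cortex 6.51%, 5.86%, 5.47% and 4.35% of 16238 genes passed in the same order, and the members passing numbered 3, 2, 1 and 1.

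Relb accounted for 7 of these 14 calls. In hippocampus the Soci means were 6.01 ± 0.91 CPM for Day and 11.97 ± 0.85 CPM for Night (SD, n = 4 each), whereas Cogn had 5.53 ± 0.42 and 11.4 ± 2.32 CPM. In Ctr0 they were 7.40 ± 1.57 and 12.01 ± 1.96 CPM, and in Ctr1 8.19 ± 1.40 and 10.6 ± 1.57 CPM. The Day values were thus lowest in Soci and Cogn, and those of Ctr1 came nearest to Night. The log2 change was -0.95 in Soci, -1.01 in Cogn and -0.64 in Ctr0 (edgeR, adjusted p = 0.000788, 0.000633 and 0.0129), while Ctr1 had -0.32 and did not pass (adjusted p = 0.195). In frontal cortex Relb passed in each condition, with -0.71 in Soci, -0.84 in Cogn, -0.63 in Ctr0 and -0.57 in Ctr1. Whether the Relb change differed among conditions did not pass in hippocampus (unadjusted p = 0.0176, adjusted p = 0.999 in edgeR).

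Nfkb2 passed in Soci in both regions, at -0.34 in hippocampus (edgeR, adjusted p = 0.0446) and -0.36 in frontal cortex (0.032), and in Cogn in frontal cortex at -0.54, with Night at 18.3 ± 2.22 CPM and Day at 12.5 ± 1.35 CPM (SD, n = 4 each, edgeR adjusted p = 0.00349). Nfkb1 passed in hippocampus in Ctr0 at 0.24 and in Ctr1 at 0.27 (edgeR, adjusted p = 0.0252 and 0.0122). These calls rest on few libraries, and leaving out 1 replicate number at a time left between 2 and 7 of the hippocampal and between 2 and 5 of the cortical pairs.

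Nfkbia, which had not passed over all conditions together, was higher in Day in the Soci libraries of both regions. The 4 Day Soci libraries of frontal cortex had 46.9, 55.7, 42.9 and 47.6 CPM, and the 4 Night ones had 29.7, 27.2, 30.8 and 23.0 CPM. In hippocampus the Day Soci libraries had 55.5, 52.6, 31.0 and 44.1 CPM, and the Night ones 25.9, 32.1, 29.8 and 31.2 CPM. The cortical groups did not overlap, and in hippocampus 1 Day library lay within the Night range. The log2 change was 0.81 ± 0.19 in frontal cortex (edgeR, adjusted p = 0.00946) and 0.67 ± 0.21 in hippocampus (adjusted p = 0.0446). The hippocampal call held in 3 of 15 alternatives, and not in those without the 9 libraries (0.70, edgeR adjusted p = 0.126) or without 8 of them (0.71, 0.141). The cortical call did not hold in every alternative either, and was lost with the scores of 8 other cell types as terms.

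In the other conditions the Nfkbia order varied. In frontal cortex the Ctr0 means were 38.7 ± 6.27 CPM for Day and 29.6 ± 5.59 CPM for Night, but 34.8 ± 3.13 and 41.7 ± 12.9 CPM in Ctr1 and 35.5 ± 6.13 and 39.7 ± 11.2 CPM in Cogn. Day was the higher in 4 of the 8 pairs of groups and the lower in 4. The test of whether its change differed among conditions gave an unadjusted p of 0.0012 in frontal cortex and 0.0523 in hippocampus, with adjusted p-values of 0.921 and 0.999 in edgeR, so that a difference between Soci and the other conditions was not shown.

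**Figure D5:**
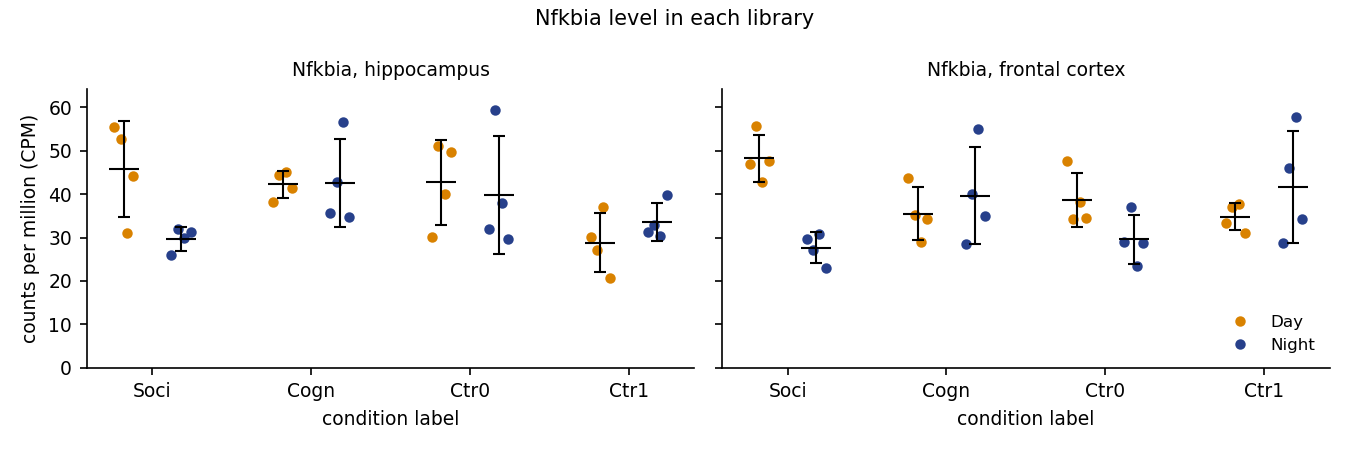
Nfkbia in CPM in each of the 64 libraries by region and condition, with the mean and SD of each group of 4 (orange Day, blue Night). The 4 cortical Day Soci libraries, at 42.9 to 55.7 CPM, lie above the 4 Night Soci libraries, while in Cogn and Ctr1 the phases overlap.

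The 4 conditions themselves, averaged over the phases, did not separate any of the 10 genes. In hippocampus none passed in edgeR or DESeq2, and 0% of all 16826 genes passed in edgeR. Unadjusted, 2 of the 10 had an edgeR p under 0.05 (Nfkbiz, 0.0108, and Nfkbia, 0.0268), as had 1090 of the 16826 genes. In frontal cortex none passed in either tool, none had an unadjusted p under 0.05, and the share over all genes was 0% as well. The highest hippocampal group mean of Nfkbiz was that of Night Soci, with 26.6 CPM, and the lowest that of Night Ctr1, with 18.9 CPM. With library totals alone, Nfkbia, Nfkbib, Nfkbie and Nfkbiz passed in hippocampus, at adjusted p-values from 0.0441 to 0.0457, where 23.0% of all genes passed. For the day-night change among conditions, none of the 10 passed in edgeR or DESeq2 in either region. In each region 1 had an unadjusted edgeR p under 0.05, Relb in hippocampus and Nfkbia in frontal cortex. Over all genes, 695 of 16826 in hippocampus and 603 of 16238 in frontal cortex had such a p. The shares of all genes that passed in edgeR were 0% in hippocampus and 0.00616% in frontal cortex.

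Between the regions the genes were nearly level. Of the 10 genes only Rel passed the comparison of 32 hippocampal with 32 cortical libraries, in which 16.6% of 16069 genes passed. Rel ran from 55.7 to 93.7 CPM in hippocampus with a median of 78.3, and from 61.8 to 100.3 CPM in frontal cortex with a median of 84.8. The ranges overlapped almost fully, and Rel was lower in hippocampus by 0.11 ± 0.038 on the log2 scale (edgeR, adjusted p = 0.0374). Without the 9 hippocampal libraries the change was -0.11 with an adjusted p of 0.0723 in edgeR, and without 8 of them it was -0.11 with 0.0569. The part of the Gm23935 share, which differed between the regions, was not tested further. Tnfaip3 at -0.087 (edgeR, adjusted p = 0.0731) and Nfkbie at -0.094 (adjusted p = 0.0987) came next. Of the remaining 7 genes, Nfkbia had the widest 95% interval of the region difference, from -0.12 to 0.21. No member passed the test of whether its day-night change differed between the regions in edgeR or DESeq2. In edgeR 1.19% of all genes passed. Of the members, Rela alone had an unadjusted edgeR p under 0.05 (0.021), as had 1587 of all 16069 genes. For Relb the difference in change was -0.083 with an interval from -0.32 to 0.16.

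Over the 64 libraries, after the mean of each region was taken away, 10940 other genes could be compared with each member for likeness of log2 CPM. These correlations describe libraries that share phase, depth and cell make-up. Nfkb2 was most like Relb itself (r = 0.80), followed by Asb2 and Tbc1d8 (0.77 and 0.75). Relb was most like Usp35, Traf3 and Asb2 (0.872, 0.868 and 0.865). Traf3 encodes an adaptor that keeps the kinase of the non-canonical pathway low. Inside a phase, over 16 libraries each, Relb and Nfkb2 correlated at 0.81 in Day and 0.70 in Night in hippocampus and at 0.68 in Day in frontal cortex, but at -0.14 in cortical Night libraries. Relb and Traf3 ranged from 0.37 to 0.86 inside the 4 sets of 16.

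Nfkbia followed a different set of genes, Ddit4, Per1 and Arid5b (0.82, 0.74 and 0.73). Ddit4 and Per1 belong to the glucocorticoid-responsive list above, and the correlation of Nfkbia with Ddit4 lay between 0.81 and 0.87 inside each of the 4 sets of 16 libraries of a region and phase. With Relb, Nfkbia had correlations from -0.30 to 0.016 inside these sets. Nfkb1 was most like Dock8, Lpin2 and Syk (0.89, 0.88 and 0.88), Rel like Tbl1xr1, Soat1 and Akirin2 (0.89, 0.89 and 0.88), and Nfkb1 and Rel had 0.76 with each other. Rela went with Cotl1, Spi1 and Arhgdia (0.84, 0.84 and 0.83), Tnfaip3 with Ehd4, Tram1 and Spata13 (0.78, 0.77 and 0.77), and Nfkbiz with Slc16a6, Fgd3 and Zfp697 (0.76, 0.74 and 0.71). Nfkbie went with Kdm2b, Dennd4b and Ncf4 (0.65, 0.62 and 0.62), and Nfkbib had no close partner, with Arf5, Drap1 and Bax at 0.46, 0.46 and 0.45.

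The genes around the family were taken from 4 lists, whose counts here and below stand beside the shares over all genes. Of all genes tested, 42.2% passed in hippocampus and 41.8% in frontal cortex. Among those passing, 55.5% and 49.2% were higher in Day. Of 25 receptors and adaptors, all tested, 16 rose and 2 fell in Day in hippocampus, and 13 rose and 3 fell in frontal cortex, with median log2 changes of 0.16 and 0.12. Tlr4, the receptor for bacterial lipopolysaccharide, rose in hippocampus by 0.54 ± 0.067 on the log2 scale, from 67.8 ± 9.82 to 96.4 ± 10.9 CPM (SD, n = 16, edgeR adjusted p = 1.05e-07), and in frontal cortex by 0.50 (adjusted p = 4.45e-06). Ripk1, a kinase at the tumour necrosis factor receptor, rose by 0.37 in hippocampus and 0.33 in frontal cortex. Traf3 fell by 0.35 ± 0.057 in hippocampus and by 0.42 ± 0.051 in frontal cortex, where Night had 36.2 ± 3.27 CPM and Day 27.1 ± 2.98 CPM (SD, n = 16, edgeR adjusted p = 2.33e-07), and Cd40 fell in both regions. Receptors of this list did not move together. Ltbr, of the lymphotoxin type, rose by 0.13 in hippocampus and 0.25 in frontal cortex (edgeR, adjusted p = 0.0308 and 0.00195). Tnfrsf11a rose by 0.30 and 0.32 (edgeR, adjusted p = 9.45e-05 and 1.23e-05). With the scores of 8 other cell types as terms the hippocampal Traf3 change was 0.014.

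Of the 10 kinases, 4 rose and 1 fell in hippocampus and 1 rose and 1 fell in frontal cortex. Tab2 rose and Tab1 fell in both, and Map3k14, the kinase of the non-canonical pathway, passed in neither. Of 19 other regulators, 18 were tested, of which 3 rose and 4 fell in hippocampus and 4 rose and 5 fell in frontal cortex. Tax1bp1, a partner of A20, rose by 0.33 ± 0.039 in frontal cortex (edgeR, adjusted p = 1.12e-07) and by 0.29 in hippocampus (adjusted p = 8.67e-05), and Btrc, a subunit of the ubiquitin ligase that marks IkB proteins for destruction, fell by 0.23 in hippocampus and by 0.27 in frontal cortex. The atypical inhibitor-like gene Bcl3 fell in both regions.

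Target genes of NF-kB did not move one way. Of 25 listed, 20 were tested, and 4 rose (Il6, Il1a, Vcam1 and Ccl4) and 5 fell (Gadd45b, Sod2, Nos2, Ccrl2 and Csf1) in hippocampus, while 2 rose (Vcam1 and Il6) and 2 fell (Ccrl2 and Tnf) in frontal cortex. Their median log2 change was -0.055 in hippocampus and -0.033 in frontal cortex, against 0.023 and -0.018 over all genes. The summed level of the 25 genes ran from 295 to 378 CPM in Day and from 297 to 365 CPM in Night in hippocampus. These lists, like the members, were chosen with earlier results of these data known. The gene names Map3k14, Cd40, Ltbr, Tnfrsf11a, Bcl3, Tab1 and Tab2 and those of the targets were picked after their values had been seen.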

How the data were processed

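Total RNA of 64 microglia libraries was depleted of ribosomal RNA and sequenced. Per the submitters' processing notes, the authors used STAR 2.7.3a and featureCounts of Subread 2.0.0 with GRCm38.p5, and they deposited raw read counts per gene, not divided by depth or length. Strand and multi-mapping settings are not given in the sources used here. Genes nested in a host intron had 401 times the median count per kb on the strand of the host as on the other strand, so strand was used. Total counts of 10.2 to 84.5 M limit precision. The 96 replicate pairs differed by a chi-square per degree of freedom of 8.26 or more, and no library was a copy of another.

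Counts were fitted with edgeR 4.0.16 in R 4.3.3 (TMM, filterByExpr, quasi-likelihood F test, Benjamini-Hochberg, threshold 0.05), separately per region, and over 64 libraries for regions. SEs were taken as the size of the log2 change over root F, and 95% intervals from them by the normal distribution. CPM used TMM factors over 64 libraries, log2 CPM a prior count of 2, and kb the union of GENCODE M21 exons. A score is the mean centred log2 CPM of a list. The fits were tested on simulated data.

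Alternatives were median-of-ratios size factors, library totals, no or a stricter filter (1 CPM in 16 libraries), DESeq2 1.42.0, a replicate block, leaving out each replicate number, removing genes over 1% of counts, cell type scores or condition as terms, and, added after the data were seen, leaving out 9 hippocampal libraries or 8 of them, and a replicate block of same-numbered hippocampal and cortical libraries. The members, the gene lists and the rule for naming genes were chosen with earlier results of these data known. The rule named all members, the 2 rises and 2 falls of lowest p among pathway genes per day-night comparison, the 3 genes most like each member, and Per2 and Nr1d1. Likeness was computed over genes whose log2 CPM averaged 2 or more. Amino acid sequences were not used here.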

Additional observations from a re-analysis of the deposited data

Results flagged for a closer look

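In 160 sets of 4 libraries (10 genes in 16 groups), 6 held a library whose gap to the nearest of the others exceeded Dixon's critical share of the range at 95%, where chance gives about 8. Rela was high in 2 Day Cogn libraries, hippocampal replicate 2 at 57.5 CPM against 50.0 to 50.9 in the other 3, and cortical replicate 1 at 59.1 CPM against 51.0 to 52.0. Relb in cortical Night Ctr0 replicate 2 was 13.5 CPM, against 12.2 in each of the other 3. Low libraries were found for Nfkbie in cortical Night Soci replicate 3 (15.5 CPM, others 20.95 to 21.9), for Nfkbie in cortical Day Ctr1 replicate 1 (17.1 CPM, others 20.4 to 20.7) and for Tnfaip3 in cortical Day Ctr0 replicate 1 (37.5 CPM, others 45.4 to 46.9). No member passed the test of whether its day-night change differed between the regions.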

How the results depend on the processing

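The number of members called day versus night was 6 in hippocampus and 5 in frontal cortex. It became 2 and 2 with library totals alone, 1 and 2 with the border macrophage score, and 0 and 2 with the scores of 8 other cell types as terms. In hippocampus it was 3 without the 9 libraries and 4 without 8 of them (Day Ctr1 replicate 4 kept). Leaving out 1 replicate number gave 3 to 6 in hippocampus (3 without replicate 1 or 2) and 3 to 5 in frontal cortex (3 without replicate 2). Without replicates 1, 2, 3 and 4, the shares of all genes passing in hippocampus were 28.2%, 29.2%, 47.6% and 32.5%, against 42.2%. In frontal cortex they were 33%, 26.5%, 32.4% and 43.2%, against 41.8%. The pairs of member and condition called, 7 in each region, became 3 and 3 with library totals alone, 2 and 1 with the border macrophage score, and 1 and 0 with the 8 scores. In hippocampus they became 3 without a count filter and 2 without the 9 or the 8 libraries. Leaving out 1 replicate number gave 2 to 7 in hippocampus and 2 to 5 in frontal cortex. For the 4 conditions in hippocampus, 0 members became 4 with library totals alone, where 23.0% of all genes passed against 0%. Between regions, 1 member became 2 with median-of-ratios size factors, 2 with library totals alone, 0 without a count filter, 3 without genes over 1% of counts, 3 with the 8 scores and 0 without the 9 or the 8 libraries, and 0 to 2 when 1 replicate number was left out (0 without replicate 2, 3 or 4). Between regions 16.6% of all genes passed in the reported fit, 19.7% without genes over 1% of counts and 34% with the 8 scores. The share was 17.2% with median-of-ratios size factors, 15.8% with library totals and 8.1% without a count filter. It was 15% and 16.4% without the 9 and the 8 libraries. Without replicates 1, 2, 3 and 4 it was 22%, 8.29%, 8.58% and 11.4%. For the day-night change between regions, 0 became 1 (Rel) with the 8 scores, where 19.2% of all genes passed, against 1.19%. The cause of these shifts was not tested.

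The changes below turned sign and are given on the log2 scale. In hippocampus, Rela became -0.13 with library totals, -0.018 with the border macrophage score, -0.068 with the 8 scores and -0.033 to 0.023 when 1 replicate number was left out. Nfkbia became -0.26 in hippocampus and -0.096 in frontal cortex with the border macrophage score. Nfkbib became -0.11 in hippocampus with library totals, and in frontal cortex 0.13 with the 8 scores and -0.0945 to 0.0071 without 1 replicate number. With the 8 scores Nfkbiz became -0.055 in hippocampus and -0.0075 in frontal cortex, Tnfaip3 -0.032 in frontal cortex and Traf3 0.014 in hippocampus. Tnfaip3 became -0.014 in hippocampus and -0.017 in frontal cortex with library totals, and -0.038 in frontal cortex with the border macrophage score. Between regions, library totals gave -0.057 for Nfkbia, -0.024 for Nfkbib and -0.042 for Nfkbiz. Leaving out 1 replicate number gave -0.042 to 0.0044 for Rela, -0.0045 to 0.074 for Nfkbia and -0.016 to 0.062 for Nfkbiz.

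The replicate block changed no call of a member: 6 and 5 members passed day versus night, and 1 between regions. Same-numbered Day and Night libraries of a condition had a median correlation of -0.027 over 16 pairs in hippocampus and 0.11 in frontal cortex, with 4 and 10 pairs over 0.1. The labels do not say whether hippocampal and cortical libraries of the same phase, condition and number came from the same mice. Their correlation had a median of 0.0063 over 32 such pairs, with 12 over 0.1 and a range from -0.74 to 0.78, beside a median of 0.011 over 96 pairs of other numbers. A replicate block of these pairs, added after the data were seen, gave 1 member between regions (Rel, -0.11, edgeR adjusted p = 0.00853) and 0 for the day-night change between regions.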
